A study of Mus musculus with 11 samples.

Results

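The respiratory chain genes of mouse liver were examined, 102 genes out of the 31280 in the deposited table, 13 of them encoded in mitochondrial DNA and 89 in nuclear DNA. They were chosen by gene symbol: the subunit genes of complexes I to V (symbols of the mt-Nd, mt-Cytb, mt-Co and mt-Atp, Nduf, Sdh, Uqcr, Cox4 to Cox8 and Atp5 series), cytochrome c (Cycs), cytochrome c1 (Cyc1) and the 3 complex III assembly factors Uqcc1 to Uqcc3. The 7 rows whose symbols mark them as pseudogenes were left out. One member kept by its symbol, Cox6c2, is annotated as a processed pseudogene in GENCODE M21.

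All animals were wild-type C57BL/6 mice fed a methionine- and choline-deficient (MCD) diet for 8 weeks, a diet that leads to fatty liver with inflammation and scarring. The MCD group (5 libraries, MCD 1 to 5) was given water into the stomach, and the limonin group (6 libraries, limonin 1 to 6) was given limonin, a citrus limonoid, at 100 mg/kg for 4 weeks. Both groups were on the MCD diet, so no library of mice on a normal diet enters the comparison; age and sex are not given in the labels. Poly(A) RNA of whole liver was sequenced, and the deposited unit is FPKM, a level normalized to transcript length and library depth. In such bulk tissue, fewer cells of a type and less RNA per cell cannot be told apart.

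The respiratory chain passes electrons from NADH (complex I) and succinate (complex II) through ubiquinone to complex III, then by cytochrome c to complex IV, which reduces oxygen. Protons pumped by complexes I, III and IV drive ATP synthase, complex V. Mitochondrial DNA encodes hydrophobic central subunits of complexes I, III, IV and V, transcribed inside the organelle as long polycistronic RNAs that are cut at the transfer RNAs between the genes. Complex II and all other subunits come from nuclear genes whose proteins are imported, so the complexes are assembled from the products of both genomes.

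The small mitochondrial reading frames are shown because their reads are hard to assign to a single gene. mt-Atp8 (chrM:7766-7969, plus strand, GRCm38), an ATP synthase subunit, shares its last 43 bases with mt-Atp6, and mt-Nd4l (chrM:9877-10173, plus strand), a complex I subunit, shares its last 7 bases with mt-Nd4. Capitals mark the shared bases in the sequences, which are those of the GENCODE M21 transcripts.
mt-Atp8: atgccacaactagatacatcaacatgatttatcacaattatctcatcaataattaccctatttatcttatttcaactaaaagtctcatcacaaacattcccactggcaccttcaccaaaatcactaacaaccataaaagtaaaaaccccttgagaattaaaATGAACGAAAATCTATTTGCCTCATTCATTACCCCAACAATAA
mt-Nd4l: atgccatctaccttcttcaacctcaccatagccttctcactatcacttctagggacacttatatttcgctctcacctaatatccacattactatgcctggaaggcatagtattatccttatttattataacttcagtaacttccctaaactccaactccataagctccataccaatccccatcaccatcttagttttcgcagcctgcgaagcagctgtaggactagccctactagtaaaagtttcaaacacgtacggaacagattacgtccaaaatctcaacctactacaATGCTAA
The other overlaps were 1 base between mt-Atp6 and mt-Co3 and 14 bases between mt-Nd5 and mt-Nd6, which lie on opposite strands. A second limit comes from stretches of mitochondrial DNA that were copied into chromosome 1. Of the 13 genes, 7 had a listed copy that matched at over 99% identity: Gm10925 matched mt-Atp6, Gm28661 matched mt-Co2, Gm28437 matched mt-Co3 and Gm10222 matched mt-Nd4l without a mismatch over at least 99% of the gene. Gm28438 matched mt-Nd3 at 99.7% identity, Gm28439 matched 63.6% of mt-Nd4 and Gm29216 matched 31.3% of mt-Co1. A further copy, Gm13340 on chromosome 2, matched the whole of mt-Co1 at 97.6% identity.

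Of the 102 genes, 96 reached at least 1 FPKM in at least 5 libraries and were tested, among 10489 genes in all. Of those 10489 genes, 25.9% were past an adjusted p of 0.05 (limma on log2(FPKM + 1)), 7.24% higher and 18.7% lower with limonin, and the median log2 difference, limonin minus MCD, was -0.07. The split of 759 higher and 1957 lower became 1466 and 1597 with median-ratio scaling and 1813 and 1614 with quantile normalization, with medians of 0.01 and 0.03. Levels of every limonin library lay below those of every MCD library in 8.33% of the tested genes and above them in 2.97%. FPKM hold no counts; an estimate from the smallest steps of the low values gave 15500000 to 19600000 fragments per library. P-values measure the spread between these libraries.

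All 13 mitochondrially encoded genes had lower mean levels with limonin, and 9 of the 13 were past the threshold, all lower, against 18.7% of all tested genes. With median-ratio scaling, and by the q of the authors' deposited table, 6 were past it, without mt-Nd1, mt-Co1 and mt-Co3 (deposited q 0.13, 0.40 and 0.13). With quantile normalization 4 were past it, mt-Nd3, mt-Nd4, mt-Nd6 and mt-Cytb. Over all genes, 1597 of 10489 were lower with median-ratio scaling, 2328 of 31280 by the deposited q and 1614 of 10489 with quantile normalization. The median log2 difference of the 13 was -0.52, from -1.08 (mt-Nd3) to -0.27 (mt-Atp8), where that of all tested genes was -0.07. In 7 of the 13, every limonin library lay below every MCD library, against 8.33% of all tested genes. The direction was the same for all 13 under every scaling tried, but mt-Atp8 turned to 0.04 once the trend on transcript length described further on was removed. Summed over the 13 genes, the level was 87078 ± 7849 FPKM (SD, n = 5) with MCD alone and 60500 ± 8380 FPKM (SD, n = 6) with limonin. This sum made up 17.1% to 21.4% of all FPKM in the MCD libraries and 12.3% to 15.3% in the limonin libraries, so the groups did not overlap.

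**Figure D1:**
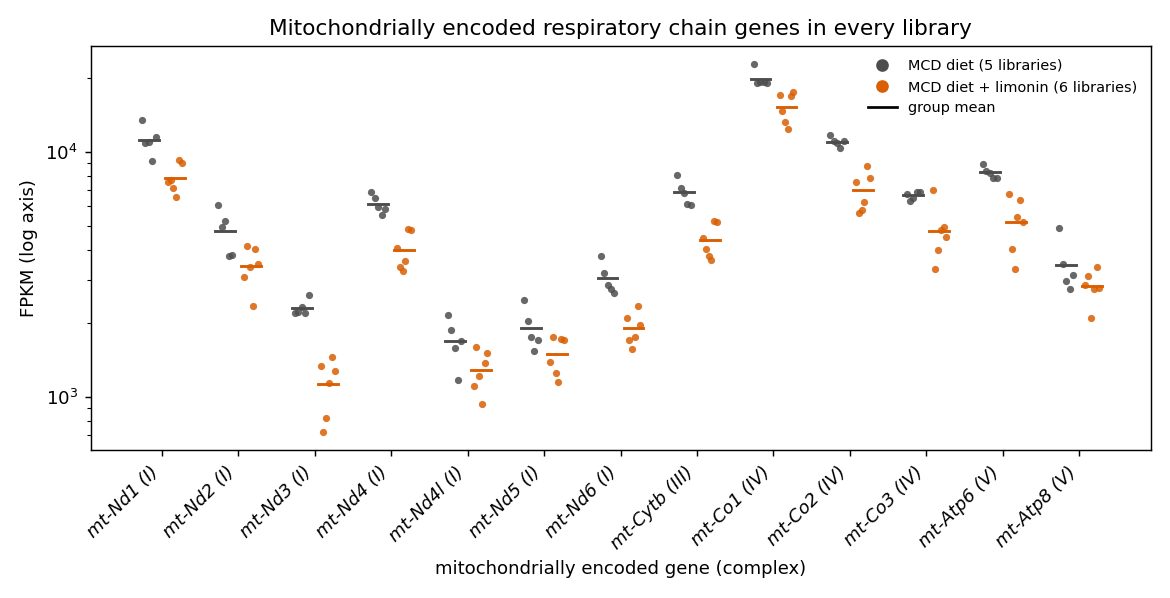
FPKM (log axis) of the 13 mitochondrially encoded genes in each MCD library (grey) and each limonin library (orange), with group means as lines. The limonin mean is lower for each gene; the groups are apart for mt-Nd3, mt-Nd4, mt-Nd6, mt-Cytb, mt-Co1, mt-Co2 and mt-Atp6, and 1 limonin library of mt-Co3 lies above all MCD libraries.

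Complex I takes 7 subunits from mitochondrial DNA, all in its membrane arm, and 4 of them fell (mt-Nd1, mt-Nd3, mt-Nd4 and mt-Nd6). The level of mt-Nd3 was 2205, 2221, 2328, 2207 and 2606 FPKM in MCD 1 to 5 and from 721 to 1457 FPKM (median 1211) in the limonin libraries (log2 difference -1.08 ± 0.17 (SE), adjusted p = 0.0019). This was the lowest log2 difference of the 96 tested members, and the highest limonin library stayed far below the lowest MCD library. mt-Nd6, encoded on the strand opposite to the other 12 genes, was at 3752, 3208, 2862, 2769 and 2667 FPKM in MCD 1 to 5 and from 1576 to 2365 FPKM (median 1868) in the limonin libraries (log2 difference -0.67 ± 0.13 (SE), adjusted p = 0.0043). Its limonin libraries also lay wholly below the MCD libraries. mt-Nd4 was at 6846, 6500.2, 5967, 5534 and 5861 FPKM in MCD 1 to 5 and from 3284 to 4863 FPKM (median 3813) in the limonin libraries (log2 difference -0.63 ± 0.13 (SE), adjusted p = 0.0057), again without overlap. mt-Nd1 was at 11175 ± 1522 FPKM with MCD alone and 7851 ± 1062 FPKM with limonin (log2 difference -0.51 ± 0.13 (SE), adjusted p = 0.015), with limonin 5 inside the MCD range. The other 3 complex I genes were not past the threshold: log2 differences were -0.48 for mt-Nd2 (adjusted p = 0.053), -0.38 for mt-Nd4l (adjusted p = 0.11) and -0.35 for mt-Nd5 (adjusted p = 0.1), and in each of them both groups overlapped.

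mt-Cytb, cytochrome b, the sole mitochondrially encoded subunit of complex III, was at 8078, 7100.1, 6813, 6119 and 6061 FPKM in MCD 1 to 5 and from 3641 to 5212 FPKM (median 4239.8) in the limonin libraries (log2 difference -0.65 ± 0.13 (SE), adjusted p = 0.0052). The groups did not overlap. mt-Co1 carries the oxygen-reducing centre of complex IV and had the highest level of all 102 genes, with 22738, 19019, 19246, 19172 and 19007 FPKM in MCD 1 to 5 and from 12395 to 17466 FPKM (median 15755) in the limonin libraries (log2 difference -0.39 ± 0.13 (SE), adjusted p = 0.042). The groups were apart, but the relative fall was smaller than for mt-Co2, and MCD 1 stood above the other 4 MCD libraries. The call of mt-Co1 was the least stable of the 9: it held in 3 of 11 fits that left out 1 library each, with adjusted p up to 0.10. mt-Co2, which takes electrons from cytochrome c, was at 11746, 11083, 10856, 10328 and 11024 FPKM in MCD 1 to 5 and from 5649.8 to 8764 FPKM (median 6873) in the limonin libraries (log2 difference -0.68 ± 0.13 (SE), adjusted p = 0.0044). mt-Co3 was at 6734, 6329.5, 6460.5, 6845 and 6858 FPKM in MCD 1 to 5 and from 3338 to 7010.2 FPKM (median 4649.6) in the limonin libraries (log2 difference -0.52 ± 0.16 (SE), adjusted p = 0.03). Here limonin 1, at 7010.2 FPKM, was above every MCD library while the other 5 limonin libraries were below them all. The call of mt-Co3 held in 4 of the 11 fits without 1 library, with adjusted p up to 0.061.

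Complex V takes mt-Atp6, part of its proton channel, and mt-Atp8 from mitochondrial DNA. mt-Atp6 was at 8961, 8386, 8201, 7861 and 7819.7 FPKM in MCD 1 to 5 and from 3337 to 6728 FPKM (median 5299) in the limonin libraries (log2 difference -0.71 ± 0.17 (SE), adjusted p = 0.0099), with no overlap. mt-Atp8 was at 4903, 3492, 2988, 2767 and 3139 FPKM in MCD 1 to 5 and from 2100.2 to 3395 FPKM (median 2821) in the limonin libraries (log2 difference -0.27 ± 0.16 (SE), adjusted p = 0.23). It was not past the threshold, and 4 of 6 limonin libraries lay within the MCD range. Both genes lie on the same strand and overlap by 43 bases, with no transfer RNA between them. mt-Atp8 (204 bases) and mt-Nd4l (297 bases) are shorter than the labels' insert size of 300 bp. Their FPKM are thus hard to compare with those of longer genes. mt-Nd3 (348 bases) lies within the spread of 50 bp that the labels give for this size, so the limit may touch mt-Nd3 as well. In the 26 alternative fits and tables, mt-Nd3, mt-Nd4, mt-Nd6 and mt-Cytb were past the threshold each time.

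The 5 copies that matched at least 99% of a gene had nearly its level in each library. The ratio of the mitochondrial gene to the copy was 0.957 to 0.984 for mt-Atp6, 0.999 to 1.03 for mt-Co2, 0.998 to 1.03 for mt-Co3, 0.995 to 1.06 for mt-Nd3 and 0.981 to 0.988 for mt-Nd4l, so reads of these pairs cannot be told apart. For the shorter matches the ratio was 1.68 to 2.63 for mt-Nd4 with Gm28439 and 1.65 to 3.21 for mt-Co1 with Gm29216. For the 5 longer matches the copies' log2 differences were close to those of the genes, as in -1.11 for Gm28438 beside -1.08 for mt-Nd3, and -0.67 for Gm28661 beside -0.68 for mt-Co2. For the shorter ones they were apart: -0.64 for Gm29216 beside -0.39 for mt-Co1, and -0.41 for Gm28439 beside -0.63 for mt-Nd4. The less similar copy Gm13340 was at 6.17 ± 1.28 FPKM with MCD alone and 6.14 ± 2.75 FPKM with limonin (log2 difference -0.07, adjusted p = 0.84). The ratio of mt-Co1 to Gm13340 was 1782 to 3900. Summing the genes of the 5 longer matches with their copies left 9 lower calls and a median of -0.52. As these pairs had nearly equal levels in each library, the sum could hardly change a log2 difference. It therefore cannot separate a gene from its copy. Among the 6 genes without such a copy (mt-Nd1, mt-Nd2, mt-Nd5, mt-Nd6, mt-Cytb and mt-Atp8), 3 fell and the median was -0.49. Among the 7 with a copy, 6 fell and the median was -0.63.

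Other products of mitochondrial DNA are not translated but were listed for comparison. Both ribosomal RNAs fell: mt-Rnr1 was at 911 ± 147 FPKM with MCD alone and 402 ± 133 FPKM with limonin (log2 difference -1.24 ± 0.23 (SE), adjusted p = 0.0033) and mt-Rnr2 at 400.04 ± 58.2 FPKM with MCD alone and 182 ± 55.9 FPKM with limonin (log2 difference -1.18 ± 0.19 (SE), adjusted p = 0.002). These RNAs carry short or no poly(A) tails and were sequenced here after poly(A) selection, so their levels show what remained in such libraries. Of the 22 transfer RNAs, 8 fell and none rose (0 higher also at an unadjusted p under 0.05 with limma), with a median of -0.28. With the trend on transcript length described further on removed, 4 rose, 6 fell and the median turned to 0.13. mt-Te, between mt-Nd6 and mt-Cytb, was at 774 ± 59.9 FPKM with MCD alone and 481 ± 58.2 FPKM with limonin (log2 difference -0.69 ± 0.11 (SE), adjusted p = 0.0018). Transfer RNAs are far shorter than the labels' insert size of 300 bp, and their FPKM are hard to compare with those of longer genes.

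The nuclear-encoded genes did not move one way. Of the 83 tested, 6 rose, 10 fell and 67 were not past the threshold, that is 7.23% higher and 12.0% lower where the whole table had 7.24% and 18.7%. Their median log2 difference was -0.23. The 6 that rose were Sdha, Atp5a1, Ndufs1, Uqcrc2, Sdhd and Atp5pb, at 0.26 to 0.52, and the 10 that fell were Uqcrq, Cox6c2, Ndufa13, Atp5e, Ndufa2, Uqcr11, Uqcc3, Uqcc2, Ndufb2 and Ndufv3, at -0.62 to -0.29. Core subunits were taken as those that carry the catalytic sites, electron carriers or the main framework. Cox4i1, Cox5a and Cox5b, which lie around the catalytic core of complex IV, were counted with them. Of these 24 genes, 5 rose, 1 fell and the median was 0.04. Of the other 59, 1 rose, 9 fell and the median was -0.28. The core median was -0.01 without limonin 5 and 6 together and positive in all the other alternatives, and the other genes' median was negative in all of them.

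**Figure D2:**
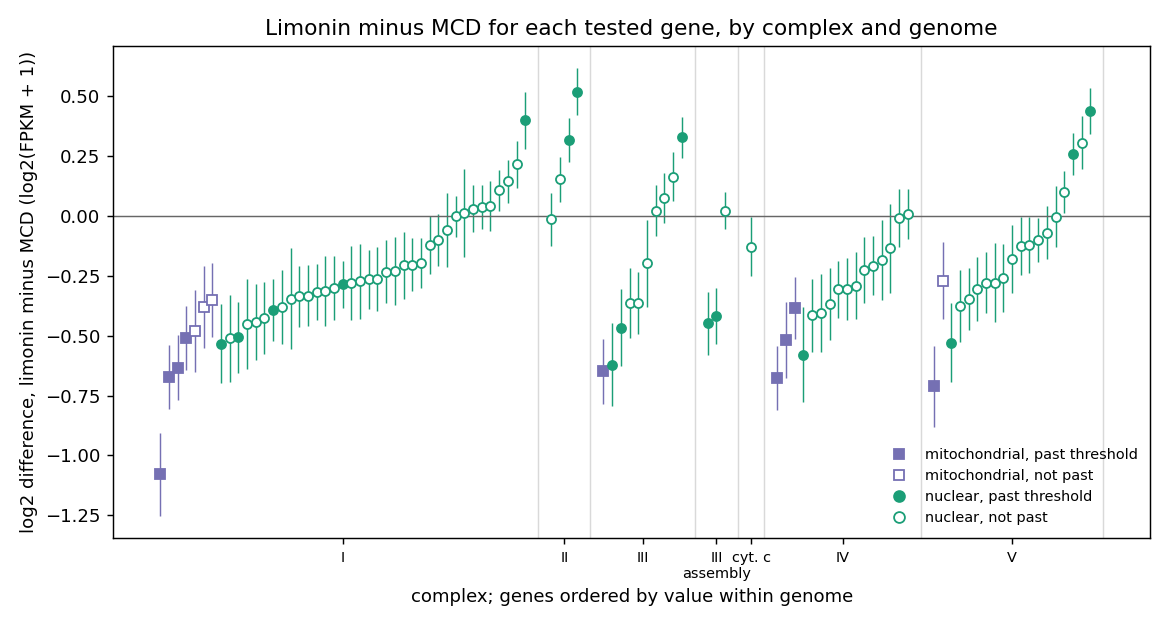
Log2 difference, limonin minus MCD, with SE for each of the 96 tested genes by complex; squares are mitochondrially encoded, circles nuclear-encoded, and filled symbols are past the limma threshold. The 13 mitochondrially encoded genes lie between -1.08 and -0.27, while the nuclear genes run from -0.62 to 0.44 in complexes I, III, IV and V and reach 0.52 in complex II.

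The count of nuclear genes that fell depended on single libraries. It was 1 without MCD 2, 4 without MCD 3, MCD 4, MCD 5 or limonin 3, 5 without limonin 6, 6 without MCD 1 or limonin 2, 7 without limonin 4, 18 without limonin 1 and 32 without limonin 5. The count that rose was 3 without MCD 2, 4 without MCD 1 or limonin 4 and 5 to 7 without any other library. Over all 10489 tested genes, 1957 fell in the main fit, 1080 without MCD 2, 2134 without limonin 1 and 1965 without limonin 5. Those that rose were 759 in the main fit, 328 without MCD 2, 474 without MCD 1 and 551 without limonin 4. Scaling also moved the split: 8 rose and 1 fell with median-ratio scaling, 8 and 14 with quantile normalization and 5 and 21 with equal nuclear sums without the copies. In the same order, 1466 and 1597, 1813 and 1614, and 586 and 2080 of all tested genes rose and fell. The 6 genes that rose kept a positive difference, and the 10 that fell a negative one, in all 26 alternatives. By the q of the authors' deposited table, 8 nuclear members were higher and 0 lower at 0.05, where 3 were lower at the deposited unadjusted p. That table covers 89 nuclear members among 31280 genes, of which 2682 were higher and 2328 lower. The limma fit, which gave 10 lower, covers 83 nuclear members among 10489 genes, of which 759 were higher and 1957 lower.

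Complex II, succinate dehydrogenase, has 4 subunits, all nuclear-encoded, and 2 of them rose. Over all tested genes, 7.24% were higher and 18.7% lower. Sdha, the flavoprotein that oxidizes succinate, was at 41.4, 41.1, 46.6, 48.8 and 46.3 FPKM in MCD 1 to 5 and from 53.5 to 72.9 FPKM (median 65.0) in the limonin libraries (log2 difference 0.52 ± 0.10 (SE), adjusted p = 0.0035). Every limonin library was above every MCD library, and Sdha was past the threshold in all 26 alternatives. Sdhd, a membrane anchor that helps to bind ubiquinone, was at 98.8, 107, 129, 124 and 117 FPKM in MCD 1 to 5 and from 133 to 151 FPKM (median 142) in the limonin libraries (log2 difference 0.32 ± 0.09 (SE), adjusted p = 0.024). It also showed no overlap. Sdhb, the iron-sulfur subunit between them, was at 97.6 ± 10.1 FPKM with MCD alone and 96.9 ± 13.5 FPKM with limonin (log2 difference -0.01 ± 0.11 (SE), adjusted p = 0.94), and Sdhc, the other anchor, at 49.1 ± 1.23 FPKM with MCD alone and 55.1 ± 6.44 FPKM with limonin (log2 difference 0.15 ± 0.09 (SE), adjusted p = 0.24). The subunits of this complex thus had log2 differences from -0.01 to 0.52.

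Complex I has 36 nuclear-encoded members here, of which 1 rose and 4 fell (2.78% and 11.1%, both below the 7.24% and 18.7% of all tested genes), with a median of -0.26. Ndufs1, the largest iron-sulfur subunit of the arm that oxidizes NADH, rose, at 5.81 ± 0.629 FPKM with MCD alone and 8.05 ± 1.44 FPKM with limonin (log2 difference 0.40 ± 0.12 (SE), adjusted p = 0.026). Limonin 5, at 6.29 FPKM, was the limonin library within the MCD range. Further core subunits had log2 differences of 0.04 (Ndufv1, which binds NADH), 0.04 (Ndufs3), 0.03 (Ndufv2), -0.20 (Ndufs8) and -0.31 (Ndufs7), none past the threshold. The 29 other members were placed in complex I by their Nduf symbols alone, Ndufa4 among them. None of these rose (0 past the threshold) and 4 fell. The highest was Ndufb5, at 0.22 with adjusted p = 0.12. Ndufa2 was at 134, 139, 154, 161 and 139.7 FPKM in MCD 1 to 5 and from 68.9 to 131 FPKM (median 102) in the limonin libraries (log2 difference -0.51 ± 0.15 (SE), adjusted p = 0.023). All limonin libraries were below all MCD libraries, limonin 1 and limonin 5 by a few FPKM and limonin 2 by far. Ndufa13, also known as GRIM-19, was at 89.8 ± 8.21 FPKM with MCD alone and 63.4 ± 15.5 FPKM with limonin (log2 difference -0.53 ± 0.16 (SE), adjusted p = 0.029), with limonin 5 inside the MCD range. Ndufb2 was at 7.29 ± 0.739 FPKM with MCD alone and 5.38 ± 1.12 FPKM with limonin (log2 difference -0.39 ± 0.13 (SE), adjusted p = 0.038) and Ndufv3 at 25.1 ± 1.15 FPKM with MCD alone and 20.6 ± 2.69 FPKM with limonin (log2 difference -0.29 ± 0.10 (SE), adjusted p = 0.047); Ndufv3 was past the threshold in 1 of the 11 fits without 1 library. Ndufs5 was just short of the threshold (adjusted p = 0.051, log2 difference -0.42) although none of its limonin libraries reached the MCD range.

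In complex III, 1 of 9 nuclear members rose and 2 fell. These were 11.1% and 22.2%, not far from the 7.24% and 18.7% of all tested genes. Uqcrc2, one of the core proteins facing the matrix, was at 59.1, 56.4, 58.0, 63.6 and 66.1 FPKM in MCD 1 to 5 and from 70.6 to 82.7 FPKM (median 76.4) in the limonin libraries (log2 difference 0.33 ± 0.09 (SE), adjusted p = 0.014), without overlap. Its partner Uqcrc1 had a difference of 0.07 (adjusted p = 0.63), and the electron carriers Cyc1 and Uqcrfs1, the Rieske iron-sulfur protein, had 0.16 and 0.02, neither past the threshold. All 5 small subunits had lower means, and 2 of them fell. Uqcrq was at 161, 194, 191, 202 and 166 FPKM in MCD 1 to 5 and from 70.6 to 168 FPKM (median 128) in the limonin libraries (log2 difference -0.62 ± 0.17 (SE), adjusted p = 0.02), the lowest difference among the nuclear genes. Limonin 5 lay within the MCD range and limonin 2 far below all other libraries. Uqcr11 was at 180.3, 214, 225, 234 and 199 FPKM in MCD 1 to 5 and from 101 to 216 FPKM (median 152) in the limonin libraries (log2 difference -0.47 ± 0.16 (SE), adjusted p = 0.046), where limonin 5 and, barely, limonin 1 reached the MCD range. Of the 3 assembly factors, Uqcc2 (log2 difference -0.42 ± 0.12 (SE), adjusted p = 0.021) and Uqcc3 (log2 difference -0.45 ± 0.13 (SE), adjusted p = 0.024) fell, and Uqcc1 was at 5.40 ± 0.157 FPKM with MCD alone and 5.50 ± 0.206 FPKM with limonin with a difference of 0.02. Cycs, cytochrome c itself, was at 34.1 ± 2.73 FPKM with MCD alone and 31.5 ± 5.94 FPKM with limonin (log2 difference -0.13 ± 0.12 (SE), adjusted p = 0.46).

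Complex IV has 19 nuclear members, of which 13 were tested, 1 fell and none rose (0 higher also at an unadjusted p under 0.05, where 6 were lower). That is 7.69% lower, against 18.7% of all tested genes, of which 7.24% were higher. The gene that fell is Cox6c2, the annotated processed pseudogene, at 6.39 ± 0.988 FPKM with MCD alone and 4.13 ± 1.64 FPKM with limonin (log2 difference -0.58 ± 0.20 (SE), adjusted p = 0.045). Cox6c, the gene of the protein itself, had a difference of -0.40 (adjusted p = 0.08). Cox4i1, Cox5a and Cox5b, subunits around the catalytic core, had differences of -0.30, -0.01 and -0.42. Cox6a1 was the most highly expressed nuclear member, at 589.8 ± 29.6 FPKM with MCD alone and 482 ± 76.4 FPKM with limonin (log2 difference -0.31 ± 0.12 (SE), adjusted p = 0.072). Complex IV subunits exist in tissue isoforms, and the liver forms dominated: Cox6a1 stood against 2.19 FPKM of the muscle form Cox6a2 with MCD alone, and Cox8a, at 462 FPKM, against 0.159 FPKM of Cox8b. The 6 members that failed the filter are all isoforms of this complex. Cox4i2, Cox6b2, Cox7a1, Cox7b2, Cox8b and Cox8c were between 0 and 1.69 FPKM in all libraries. Of the 3 testis forms among them, none of them tested, Cox6b2 had a lower mean with limonin (0.524 against 0.690 FPKM) and Cox7b2 and Cox8c had higher means (0.472 against 0.0747 FPKM and 0.881 against 0.256 FPKM). Markers of spermatids were also higher, with the values given further on, and their part in these levels was not tested.

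In complex V, ATP synthase, 2 of 17 nuclear members rose and 1 fell. That is 11.8% higher and 5.88% lower, against 7.24% and 18.7% of all tested genes. Atp5a1, the alpha subunit of the catalytic head, was at 186, 192, 207, 218 and 232 FPKM in MCD 1 to 5 and from 261 to 318 FPKM (median 276) in the limonin libraries (log2 difference 0.44 ± 0.10 (SE), adjusted p = 0.0067). All limonin libraries were above all MCD libraries. Atp5b, the beta subunit that holds the catalytic sites, was at 205, 247, 271, 296 and 304 FPKM in MCD 1 to 5 and from 296 to 341 FPKM (median 329) in the limonin libraries (log2 difference 0.31 ± 0.11 (SE), adjusted p = 0.055). It was just short of the threshold, and 5 of 6 limonin libraries were above all MCD libraries. The remaining parts of the head and central stalk, Atp5c1 (gamma), Atp5d (delta) and Atp5e (epsilon), had 0.10, -0.12 and -0.53, of which Atp5e alone was past the threshold. Atp5e was at 58.1, 66.5, 63.8, 70.0 and 60.7 FPKM in MCD 1 to 5 and from 28.6 to 63.7 FPKM (median 44.8) in the limonin libraries (log2 difference -0.53 ± 0.16 (SE), adjusted p = 0.031), with limonin 5 inside the MCD range. Atp5pb, subunit b of the stator, was at 58.0, 51.4, 57.4, 62.5 and 61.8 FPKM in MCD 1 to 5 and from 65.5 to 77.9 FPKM (median 67.9) in the limonin libraries (log2 difference 0.26 ± 0.09 (SE), adjusted p = 0.041). It showed no overlap, but was past the threshold in 4 of the 11 fits without 1 library, with adjusted p up to 0.12. The 3 genes of the membrane ring, Atp5g1, Atp5g2 and Atp5g3, which encode the same mature protein, had -0.0021, -0.10 and -0.13.

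**Figure D3:**
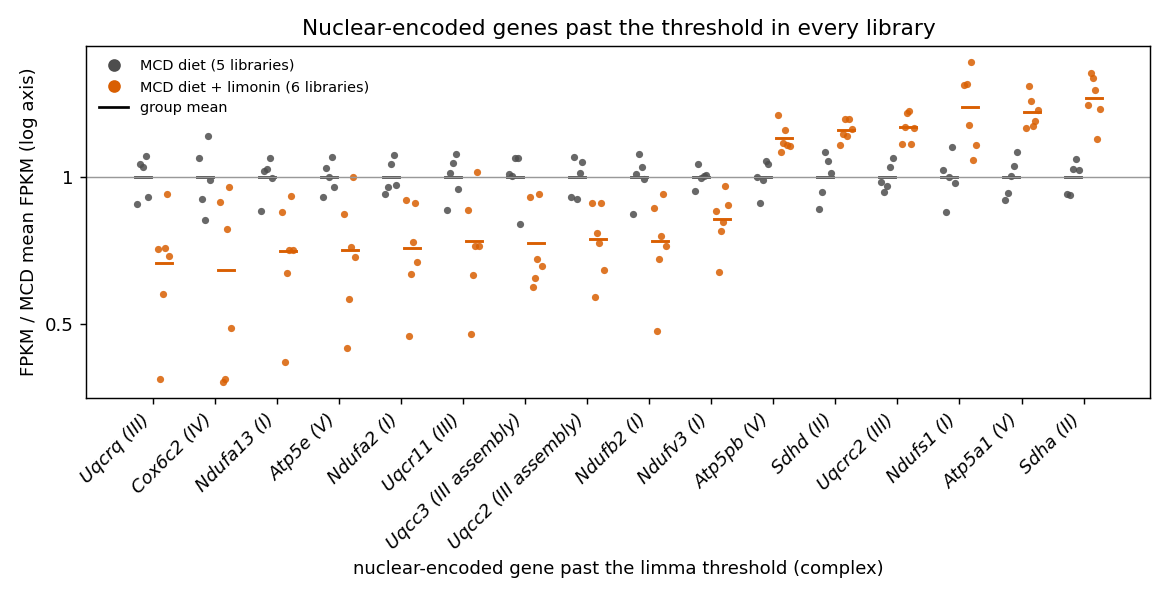
FPKM divided by the mean FPKM of the MCD libraries (log axis) for the 16 nuclear-encoded genes past the limma threshold, ordered by difference, with each MCD library in grey, each limonin library in orange and group means as lines. For 5 of the 6 genes that rose the groups are apart, while for 8 of the 10 that fell at least 1 limonin library lies within the MCD range.

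The median of the mitochondrially encoded genes was 0.29 log2 units below that of the nuclear-encoded genes (-0.52 against -0.23); the difference of the medians was -0.29, between -0.26 and -0.48 in all alternatives other than quantile normalization, where it was -0.023. The ratio of summed mitochondrial to summed nuclear FPKM was 10.5 ± 1.64 (SD, n = 5) with MCD alone and 8.09 ± 0.955 (SD, n = 6) with limonin. The groups overlapped in this ratio, as limonin 2, at 9.49, was above MCD 4, at 8.96. MCD 1 was the highest at 13.3.

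Differences of the nuclear genes followed the length of their transcripts. Across the 83 tested nuclear genes, Spearman's rho between the log2 difference and transcript length was 0.72 (Pearson's r with log2 length 0.76). Over all 10481 tested genes with a length, rho was 0.18. Genes share libraries and normalization, so these values are descriptions. The 31 nuclear members under 600 bases had a median of -0.36, with 0 higher and 7 lower, where all 707 tested genes of that length had a median of -0.26 and 21.4% lower. The 31 of 600 to under 1200 bases had a median of -0.20, with 1 lower, where all 1515 genes had -0.18 and 24.0% lower. The 21 of 1200 bases or more had a median of 0.11, with 6 higher and 2 lower, where all 8259 genes had -0.03, 8.16% higher and 17.4% lower. All 6 genes that rose have transcripts of at least 1231 bases (Sdhd), up to 2900 bases (Sdha), and 7 of the 10 that fell have transcripts under 600 bases, such as Uqcrq (405 bases), Atp5e (421) and Uqcr11 (445). The core subunits are mostly the longer ones; with the trend on length removed across all genes, their median was 0.18 and that of the other nuclear genes -0.05, against 0.04 and -0.28 before.

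**Figure D4:**
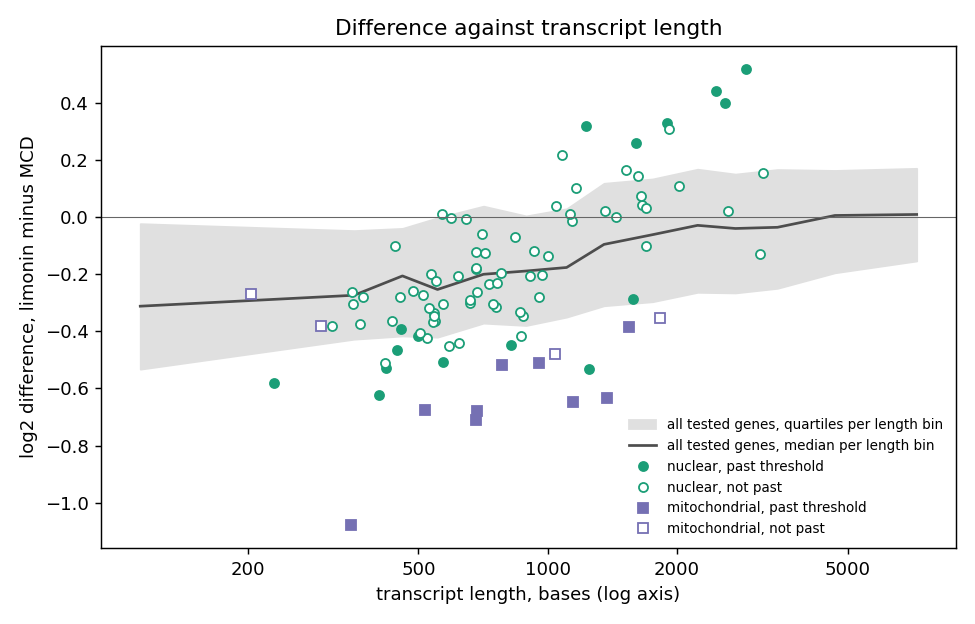
Log2 difference, limonin minus MCD, against transcript length (log axis) for the nuclear-encoded (circles) and mitochondrially encoded (squares) genes, filled where past the limma threshold, over the median (line) and quartiles (grey) of all tested genes per length bin. Nuclear members under 600 bases have a median of -0.36 and those of 1200 bases or more 0.11; mitochondrial genes lie below the median line of genes of their length except for mt-Atp8.

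With the trend on length removed across all genes, 14.4% of them were higher and 16.3% lower, and the split among the nuclear members turned. Then 9 rose (the former 6 with Atp5b, Atp5c1 and Ndufb5) and 2 fell (Ndufa2 and Uqcrq), and their median was -0.03. The mitochondrially encoded genes had a median of -0.34 in that fit, with 6 past the threshold (mt-Atp6, mt-Co2, mt-Cytb, mt-Nd3, mt-Nd4 and mt-Nd6), all lower. The difference between the medians was -0.31.

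The limonin libraries were not alike. Relative to the mean of the MCD libraries, the mean log2 level of the 31 short nuclear members was -0.853 in limonin 2, -0.519 in limonin 3, -0.376 in limonin 6 and -0.249 in limonin 4, but -0.0892 in limonin 1 and 0.0276 in limonin 5. The MCD libraries lay between -0.0933 and 0.0913. The nuclear members of 1200 bases or more were between 0.107 and 0.176 in 5 limonin libraries and at -0.0267 in limonin 2. The mitochondrially encoded genes were lowest in limonin 3 (-0.812) and limonin 4 (-0.740) and highest in limonin 5 (-0.304). All 6 limonin values lay below the MCD range of -0.178 to 0.236.

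**Figure D5:**
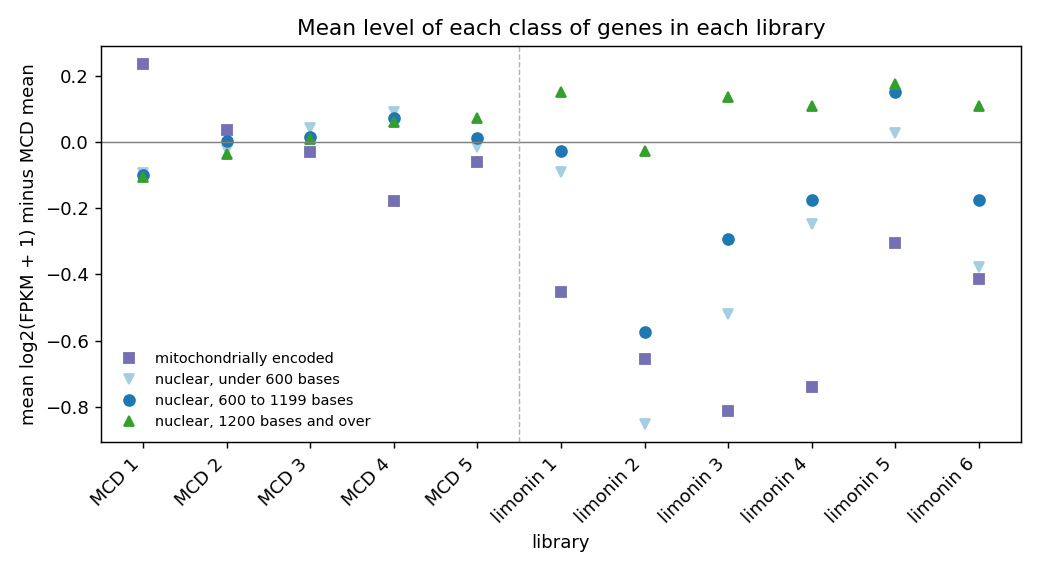
Mean log2(FPKM + 1) of 4 classes of genes in each library, minus the mean of the MCD libraries: mitochondrially encoded genes and the nuclear-encoded genes in 3 classes of transcript length. Mitochondrial genes are below 0 in all 6 limonin libraries, while short nuclear genes range from -0.853 in limonin 2 to 0.0276 in limonin 5.

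Genes that build or serve the chain were listed alongside. Their counts stand beside 7.24% higher and 18.7% lower over all tested genes. None of the 7 tested regulators of mitochondrial biogenesis was past the threshold in the limma fit (1 higher and 1 lower at an unadjusted p under 0.05): Gabpa, a subunit of the ETS factor GABP, had a difference of 0.32 (adjusted p = 0.094) and Esrra, the oestrogen-related receptor alpha, -0.20 (adjusted p = 0.11). Of 14 genes that maintain or transcribe mitochondrial DNA, 1 rose and 1 fell: Mgme1, a nuclease of mitochondrial DNA, had 0.35 (adjusted p = 0.035) and Dguok, which phosphorylates purine deoxynucleosides for it, -0.39 (adjusted p = 0.0081). Tfam, which packages mitochondrial DNA and starts its transcription, was at 5.42 ± 0.515 FPKM with MCD alone and 6.79 ± 0.865 FPKM with limonin (log2 difference 0.28 ± 0.10 (SE), adjusted p = 0.055). Of 20 genes that process or stabilize mitochondrial RNA, 3 rose and 1 fell. Lrpprc, which stabilizes mitochondrial messenger RNAs, was at 4.13 ± 0.605 FPKM with MCD alone and 5.86 ± 1.04 FPKM with limonin (log2 difference 0.41 ± 0.12 (SE), adjusted p = 0.025), and Grsf1, of the mitochondrial RNA granules, was at 18.3 ± 1.35 FPKM with MCD alone and 23.3 ± 2.24 FPKM with limonin (log2 difference 0.33 ± 0.09 (SE), adjusted p = 0.017). Of 78 mitochondrial ribosomal protein genes, 2 rose and 9 fell (2.56% and 11.5%), with a median of -0.10. With the length trend removed the split turned to 12 higher and 3 lower, with a median of 0.01. The share of all tested genes called higher also grew in that fit, from 7.24% to 14.4%, and 16.3% were lower. In that fit 6 genes were higher and 1 lower for mitochondrial RNA, 4 and 1 for mitochondrial DNA, and 1 regulator was higher.

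The counts that follow stand beside 7.24% higher and 18.7% lower over all tested genes. Among the assembly factors, 1 of 18 for complex I rose (Nubpl, 0.35) and 1 fell (Ndufaf2, -0.29), and of 23 for complex IV, 2 rose (Taco1, 0.64, and Cox11, 0.44) and 4 fell, among them the copper chaperone Cox17 (log2 difference -0.64 ± 0.14 (SE), adjusted p = 0.0077). For complex IV that is 8.70% higher and 17.4% lower, close to the whole table. Sdhaf1, for complex II, fell (-0.30) and Bcs1l, which inserts the Rieske protein into complex III, rose (0.32). Atpif1, the inhibitor of ATP synthase when it runs in reverse, was at 43.1, 37.5, 30.4, 23.4 and 33.6 FPKM in MCD 1 to 5 and from 11.6 to 24.0 FPKM (median 20.2) in the limonin libraries (log2 difference -0.76 ± 0.18 (SE), adjusted p = 0.0094). The highest limonin library was just above MCD 4, and the others lay below every MCD library. Of 14 mitochondrial chaperones and proteases, 3 rose and none fell (0 lower also at an unadjusted p under 0.05 with limma): Hspa9 was at 72.4 ± 7.96 FPKM with MCD alone and 116 ± 26.1 FPKM with limonin (log2 difference 0.64 ± 0.14 (SE), adjusted p = 0.0074), Hspd1 had 0.50 and Clpx 0.93. Of 17 carriers and other inner membrane genes, 2 rose and 2 fell. Etfdh, which passes electrons from fatty acid oxidation to ubiquinone, was at 7.17 ± 1.08 FPKM with MCD alone and 13.2 ± 4.21 FPKM with limonin (log2 difference 0.75 ± 0.18 (SE), adjusted p = 0.011) and its partner Etfa rose by 0.38. Slc25a4, an ADP/ATP carrier, and Ucp2, an uncoupling protein homologue, fell (-0.90 and -0.90).

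Markers of cell types moved with the groups. Hepatocyte markers were high in every library of this liver tissue, summed at 31384 to 38956 FPKM with MCD alone and 32964 to 50483 FPKM with limonin; 3 of 10 rose (Alb, Cps1 and Hnf4a) and Apoa1, with a shorter transcript of 1035 bases, had -0.65 (adjusted p = 0.055). Markers of other cells fell: 4 of 4 tested for cholangiocytes (of 6 listed, summed 66.2 to 389.5 FPKM with MCD alone and 20.5 to 76.9 with limonin), 4 of 6 for macrophages (149.2 to 536.0 against 87.8 to 147.5), 5 of 6 for stellate cells and fibroblasts (35.8 to 76.4 against 16.5 to 23.8) and 2 of 2 tested for lymphocytes (6.26 to 11.9 against 2.92 to 6.80). Of 5 endothelial markers, 1 rose. The cholangiocyte marker Cftr was under 0.1 FPKM in every library. Of 8 muscle markers, Myl7 alone was tested and was not past the threshold (0 also at an unadjusted p under 0.05). Myh4 was under 0.1 FPKM in every library, and the sums of the 8 were 1.95 to 3.51 FPKM with MCD alone and 1.24 to 19.1 FPKM with limonin. Myh6, Actc1, Ckm, Acta1 and Mb were highest in limonin 5 and limonin 6, as in 6.48 and 3.19 FPKM for Mb. Mb was at 0 in limonin 1 to limonin 4. Myl7 and Myh4 were highest in limonin 1 and Tnnt2 in MCD 4. All 5 spermatid markers rose, with sums of 0 to 20.8 FPKM in the MCD libraries and 12.7 to 98.2 FPKM in the limonin libraries. These calls were close to the threshold: adjusted p was 0.025 for Odf1 and from 0.041 (Tnp2) to 0.0499 (Prm1) for the other 4, which held in 2 or 3 of the 11 fits without 1 library, and the q of the authors' deposited table was 0.12 to 0.23. All 5 were listed at 0 in MCD 4 and MCD 5, so they passed the filter on low values with 3 MCD libraries and the limonin libraries. The part of these shifts in the differences of the respiratory chain genes was not tested.

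Promoters of nuclear members are known for binding sites of NRF-1 and of ETS factors such as GABP. RefSeq promoters (GRCm38.p6, 250 bases before to 50 bases after the start) were found for 72 of the 89 nuclear members, 77 promoters in all. The 4 shown are of genes that rose (Sdha and Sdhd) and of genes that fell (Atp5e and Uqcr11), on the gene's strand, with capitals on the motif matches. They were picked among genes past the threshold with 1 listed promoter that held a motif match. The motifs of the 4 shown are thus a condition of the choice, and the shares are given below. The windows are chr13:74350191-74350490 for Sdha, chr9:50603800-50604099 for Sdhd, chr2:174464052-174464351 for Atp5e and chr10:80406772-80407071 for Uqcr11, all on the minus strand.
Sdha: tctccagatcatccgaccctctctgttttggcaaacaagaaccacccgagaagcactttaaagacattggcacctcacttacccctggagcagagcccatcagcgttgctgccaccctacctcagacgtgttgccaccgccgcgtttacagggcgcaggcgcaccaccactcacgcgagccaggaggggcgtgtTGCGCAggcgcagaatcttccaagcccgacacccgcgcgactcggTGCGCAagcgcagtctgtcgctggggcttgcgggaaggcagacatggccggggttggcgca
Sdhd: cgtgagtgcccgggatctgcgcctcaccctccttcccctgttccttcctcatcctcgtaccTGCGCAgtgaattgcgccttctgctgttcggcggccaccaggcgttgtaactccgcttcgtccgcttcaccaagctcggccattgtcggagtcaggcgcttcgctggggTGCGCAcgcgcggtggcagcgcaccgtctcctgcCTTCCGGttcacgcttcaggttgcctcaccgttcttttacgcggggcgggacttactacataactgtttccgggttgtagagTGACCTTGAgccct
Atp5e: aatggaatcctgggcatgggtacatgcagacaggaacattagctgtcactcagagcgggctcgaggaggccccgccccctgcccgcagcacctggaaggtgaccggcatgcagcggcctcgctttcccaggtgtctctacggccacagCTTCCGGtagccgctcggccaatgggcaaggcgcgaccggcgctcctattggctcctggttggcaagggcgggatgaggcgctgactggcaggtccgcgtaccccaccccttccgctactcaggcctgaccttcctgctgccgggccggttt
Uqcr11: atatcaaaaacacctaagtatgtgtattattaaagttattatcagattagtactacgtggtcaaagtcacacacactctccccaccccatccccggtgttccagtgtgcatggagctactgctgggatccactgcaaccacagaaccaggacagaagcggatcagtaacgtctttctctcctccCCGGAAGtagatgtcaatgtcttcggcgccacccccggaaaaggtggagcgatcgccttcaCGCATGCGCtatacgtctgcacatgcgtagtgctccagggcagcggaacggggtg
In Sdha the capitals mark the short NRF-1 motif TGCGCA, in Sdhd that motif, the ETS motif CCGGAAG and the ESRRA motif TCAAGGTCA, in Atp5e the ETS motif, and in Uqcr11 the NRF-1 motif GCGCATGCG and the ETS motif, on either strand. The long NRF-1 motif was in 11.7% of the members' promoters, 3.7% of promoters of tested genes and 1.8% of all 32851 promoters. Shares for the short NRF-1 motif, part of which can overlap the long one, were 26.0%, 13.8% and 7.8%. For the ETS motif they were 22.1%, 18.0% and 8.9%, and for the YY1 motif AAGATGGCG 9.1%, 3.1% and 1.4%. The ESRRA motif was in 2.6%, 0.3% and 0.4%, and the TATA motif TATAAA in 11.7%, 7.9% and 13.6%. Of the genes that rose, 3 have a promoter in the table: 3 hold the short NRF-1 motif, 0 the long one, 1 the ETS motif and 1 the ESRRA motif. Of those that fell, 7 have one: 1 holds the short NRF-1 motif, 1 the long one, 2 the ETS motif and 0 the ESRRA motif. Neither group holds the YY1 or the TATA motif. These counts describe letters in a window and were not tested.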

How the data were processed

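Liver poly(A) RNA of 11 libraries (5 MCD, 6 limonin) was measured. Per the labels' protocols, RNA with an integrity number above 7.0 was fragmented and second strands were marked with dUTP. Tools named in the submitters' processing notes are HISAT2 2.0.4, StringTie 1.3.4d and cutadapt 1.9. These notes name the human build GRCh38, while the identifiers belong to mouse genes. The use of strand in counting is not given in the sources used.

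Per the file headers, the authors deposited an FPKM value for each gene in each library. The deposited table also has a fold (the authors' ratio of means) with its log2. It has the authors' p-value and q-value as well; the test behind them is not given in the sources used.

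On the scale log2(FPKM + 1), 10489 of 31280 genes reached 1 FPKM in 5 or more libraries and were tested. limma 3.58.1 (R 4.3.3) compared the groups, two-sided, with its trend and robust options, with Benjamini-Hochberg adjustment over all tested genes and a threshold of 0.05. Differences on this scale understate changes of low genes. Each label gives 1 group and replicate number; animals are not named, and the design text gives 5 to 6 mice per group. The fit was also run on simulated data with independent noise for each gene. These libraries have deviations shared by many genes, so that run does not measure false calls here.

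Lengths and coordinates are those of GENCODE M21 (GRCm38), in which 31191 of the 31280 identifiers were found; the length is that of the transcript with the longest coding sequence, or the longest transcript of a gene without one. The trend on length was a loess curve (span 0.3) subtracted per library. Copies of mitochondrial genes were found with BLAST 2.17.0 (at least 97% identity over at least 100 bases). Depth was estimated in genes with 1 transcript, taking FPKM times length of the commonest low value as 1 fragment within a fixed range; the depth behind single values is unknown, so no counting intervals are given.

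Genes named are all mitochondrial members, the nuclear core subunits and isoform pairs, per complex the called genes with the smallest p and the highest and lowest differences, members called against the majority and, from each other list, the 4 genes of smallest p. A withheld item is not reported here. The members and lists were chosen with earlier results of these data known. Alternatives were other filters, pseudocounts, scalings, weights, a replicate block, fits without libraries and the authors' table; 3 more were added after seeing the data.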

Additional observations from a re-analysis of the deposited data

Results flagged for a closer look

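Among 132 sets of libraries (1 gene in 1 group) examined for a value far from the rest, 5 held one, where chance gives about 1 in 20. The level of mt-Co1 in MCD 1 was 22738 FPKM, above the 19007 to 19246 FPKM of the other 4 MCD libraries. In the same library 2 nuclear genes were lowest of their group: Cyc1 was at 94.0 FPKM, with the others at 118.7 to 128.0 FPKM, and Atp5d at 172.5 FPKM, with the others at 215.5 to 228.7 FPKM. Cox7b in MCD 2 was at 46.9 FPKM, below the 62.9 to 66.7 FPKM of the other MCD libraries. Sdhb in limonin 5 was at 122.9 FPKM, above the 84.5 to 97.4 FPKM of the other 5 limonin libraries.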

How the results depend on the processing

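Of 61 named genes followed through 26 alternatives, 1287 values kept their direction and their side of the threshold, 183 lost the call, 51 gained one and 64 changed sign without being called on either side, 10 of them with the length trend removed; no called gene changed direction. Nuclear members past the threshold, 16 in the main analysis (6 higher, 10 lower), came to 4 (0 lower, 28 lower at an unadjusted p under 0.05 in limma) without the filter, 9 (1 lower) with median-ratio scaling, 32 (26 lower) with library weights, 26 (21 lower) with equal nuclear sums without the copies, 30 (26 lower) without limonin 5 and 6, 5 (1 lower) without MCD 4 and 5, and 8 (0 lower) by the authors' deposited table. With the length trend removed 2 were lower, also with equal nuclear sums without the copies. Without 1 library they ranged from 4 to 38 (3 to 7 higher, 1 to 32 lower). Mitochondrial members past it, 9, were 4 with quantile normalization and 7 without the filter. They were 6 with median-ratio scaling, with the length trend removed and by the authors' deposited table, and 7 to 10 without 1 library. Quantile normalization gives genes of equal rank equal levels in every library, and mt-Co1 ranked from 1 to 3. This limits the differences it can show for such genes. The difference of medians was -0.023 with quantile normalization and -0.39 to -0.26 without 1 library. The cause of these shifts was not tested.

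All genes past the threshold, 2716 (759 higher, 1957 lower), came to 1424 (900 lower) with a filter at 5 FPKM, which tests fewer genes, and 5010 (2682 higher) by the authors' deposited table. Higher calls were 412 without the filter, 1466 with median-ratio scaling, 1813 with quantile normalization, 1508 with the length trend removed, 1497 with that and equal nuclear sums without the copies, 1347 without limonin 5 and 6, and 486 without MCD 4 and 5. Without 1 library the ranges were 1408 to 3062 in all, 328 to 1097 higher and 1080 to 2134 lower.

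The replicate numbers did not pair the libraries: correlations of deviations between libraries of the same number were 0.0761, -0.235, -0.169, 0.204 and -0.172, and 1 of the 5 MCD libraries correlated best with its own number. A fit with the replicate number as a block, which drops limonin 6, gave 1257 genes (362 higher, 895 lower), 3 nuclear members (2 higher, 1 lower) and 7 mitochondrial members.

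FPKM without counts set the limit on depth: members under 1 FPKM could not be tested, and at the same FPKM a shorter transcript rests on fewer fragments.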
